A study of Mus musculus with 36 samples.

Results

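Protocadherin genes were taken as every probe of the array whose gene symbol starts with Pcdh. The rule found 96 probes for 68 genes among 45281 probes on the array, and it used no measured value. Of these, 66 probes stood for 54 clustered genes (19 probes of Pcdha, 25 of Pcdhb and 22 of Pcdhg) and 30 probes for 14 non-clustered genes. RNA came from 3 brain regions, the hippocampus (HIP), the nucleus accumbens (NAc) and the prefrontal cortex (PFC), of adult male mice labelled C57BL/6J, all wild type. Mice received 10 daily intraperitoneal injections of CI-994 at 10 mg/kg, of SAHA at 25 mg/kg, of Cpd-60 at 45 mg/kg or of vehicle alone, and brains were taken 1 h after the last injection. Cpd-60 is a benzamide that inhibits the histone deacetylases HDAC1 and HDAC2, CI-994 is another benzamide HDAC inhibitor, and SAHA (vorinostat) is a hydroxamic acid that inhibits HDACs with less selectivity. All 4 treatments shared the injection vehicle of saline, PEG-400 and DMSO. Each array held RNA pooled from 2 mice, each treatment had 3 pools, and every pool gave all 3 regions, so that the 36 arrays formed 12 groups of 3. The doses differed between drugs, so the drugs are set side by side and were not tested against each other, and all 3 were compared with the same vehicle arrays.

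Protocadherins are the largest family of cadherin-type cell adhesion molecules and are expressed mostly in neurons. The clustered genes lie in 3 tandem arrays, Pcdha, Pcdhb and Pcdhg. Each neuron transcribes a small choice of their variable exons from separate promoters, a choice that depends on CTCF, cohesin and DNA methylation, and the resulting combination of surface proteins lets a neurite tell its own branches from those of other cells. In Pcdha and Pcdhg the variable exon is spliced to constant exons that all members of the cluster share, whereas Pcdhb genes have a single coding exon. The non-clustered genes lie apart, are mostly of the delta class, and encode adhesion proteins with long cytoplasmic tails that are expressed in region-restricted patterns in the brain. The array table gives no probe sequences or positions, so whether a Pcdha or Pcdhg probe lies in a shared constant exon was not checked. Probes of the clustered genes are therefore uncertain as to which near-identical member they report.

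The clearest results concerned 2 non-clustered genes. On probe ILMN_1237302 Pcdh20 was 4.49-fold higher in HIP than in PFC, and Pcdh10, of the delta-2 group, was 2.49-fold lower on ILMN_2727239. Other probes of these genes differed less. The log2 difference was 1.40 on the Pcdh20 probe ILMN_1224947 and -0.78 on the Pcdh10 probe ILMN_1228833. The Pcdh10 probe ILMN_2663752 was not lower, with medians of 6.81 in PFC and 6.89 in HIP. The 250 bases before the annotated start of each gene are shown because these genes carried the largest differences between regions, in opposite directions. They were read from the RefSeq promoter table for the mouse build GRCm38.p6, 5′ to 3′ along the gene's own strand, at chr14:88471397-88471646 on the minus strand for Pcdh20 and chr3:45378148-45378397 on the plus strand for Pcdh10. Capitals mark every CG dinucleotide, the base pair step at which mammalian DNA is methylated.
Pcdh20: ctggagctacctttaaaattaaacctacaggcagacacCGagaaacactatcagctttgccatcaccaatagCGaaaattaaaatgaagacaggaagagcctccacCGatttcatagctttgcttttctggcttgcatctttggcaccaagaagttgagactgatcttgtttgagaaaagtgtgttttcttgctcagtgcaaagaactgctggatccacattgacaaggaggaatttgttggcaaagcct
Pcdh10: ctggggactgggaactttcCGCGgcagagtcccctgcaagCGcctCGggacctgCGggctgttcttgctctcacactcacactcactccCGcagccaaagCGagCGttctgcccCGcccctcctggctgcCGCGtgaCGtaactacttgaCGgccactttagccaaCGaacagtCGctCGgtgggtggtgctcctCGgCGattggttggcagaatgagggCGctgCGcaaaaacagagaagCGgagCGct

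The Pcdh20 sequence held 3 CG dinucleotides and the Pcdh10 sequence 22, against a median of 6 over the same 250-base window of all 32851 promoters in the table. Among them 29.0% of promoters held fewer than Pcdh20 and 85.2% fewer than Pcdh10. The motif GGGCGG, searched on both strands, occurred 1 time in the Pcdh10 window and was not found in that of Pcdh20, and 32.7% of all promoters held it. These counts describe the letters of the reference only, since methylation was not measured.

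Expression was read as fluorescence intensity, given below as log2 of the quantile-normalized value and called the level. A detection p-value came with each intensity, the chance of such a signal from negative control beads, and a probe was called detected at 0.01 or below. Between 31.9% and 43.3% of all probes were detected on an array, and the 95th percentile of the raw intensity ran from 349.9 to 1079.7. Sums of striatal and hippocampal markers followed the labels. Summed intensity of 8 measured striatal markers was 14020 to 24284 in NAc and at most 2102 elsewhere, and that of 7 hippocampal markers was 4464 to 5967 in HIP and at most 2838 elsewhere. Of these 7 markers 6 were higher in HIP than in PFC at an adjusted p of 0.05. Against the NAc 6 were higher and 1 lower in HIP. Summed intensity of cortical markers was 398 to 688 in NAc, below the PFC at 2715 to 4707. In HIP the sums, at 1948 to 5296, overlapped those of the PFC, and the highest HIP sum came from a CI-994 array. Of 4 cortical markers 2 were lower in HIP than in PFC at an adjusted p of 0.05. Other cell types also moved with region. All 6 oligodendrocyte markers were higher in HIP and NAc than in PFC. Their summed intensities were 8025 to 12355 in PFC, 13494 to 22162 in NAc and 20573 to 26964 in HIP. Of 4 choroid plexus markers 3 were higher and 1 lower in HIP than in PFC, and 3 were higher in HIP than in NAc. Their sums were 1338 to 10811 in HIP and at most 1488 elsewhere. Of 3 neuronal markers 2 were lower in HIP and in NAc than in PFC, with summed intensities of 8402 to 11429 in PFC, 5666 to 8074 in NAc and 5896 to 8661 in HIP. All 3 blood markers and 4 of 5 endothelial markers were lower in both as well, and 1 endothelial marker was higher in NAc than in PFC. Of 5 astrocyte markers 3 were higher and 1 lower in HIP than in PFC, and 1 was higher and 3 lower in NAc. Over all tested probes 20.5% were higher and 26.3% lower in HIP than in PFC. In NAc 20.6% were higher and 21.3% lower than in PFC. The part of these cell types in the region results was not tested. In such bulk tissue fewer cells of a type and less RNA per cell cannot be told apart. Each region was run on 2 BeadChips of its own with 6 arrays each, so region and BeadChip cannot be fully told apart, and a fit with BeadChip as a random block is given beside the region counts.

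A smaller share of clustered than of non-clustered probes was detected on all 36 arrays. A median of 39.5 of the 96 protocadherin probes was detected per array, with a range of 22 to 52. By region the median was 39.5 in PFC, 43.5 in NAc and 36 in HIP. Of the 66 clustered probes 8 (12.1%) were detected on all 36 arrays, and of the 30 non-clustered probes 9 (30%) were, against 25.0% of all probes on the array. At the other end, 24 protocadherin probes (25%) were detected on no array, 17 clustered and 7 non-clustered, against 39.0% of all probes. The Pcdhb genes made up 10 of these 24. The 8 clustered probes seen on every array belonged to Pcdha6, Pcdha7 (2 probes), Pcdhac2, Pcdhb3, Pcdhb7, Pcdhgb4 and Pcdhgc5. The 9 non-clustered ones belonged to Pcdh9 with 4 probes, Pcdh10 with 2, and Pcdh17, Pcdh19 and Pcdh20 with 1 each. By RefSeq annotation 56 of the 68 genes lie on mouse chromosome 18, which holds the 3 clusters.

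Detection by region is given for each cluster, against medians over all probes of 36.2% in PFC, 39.0% in NAc and 38.7% in HIP. A median of 10 of 19 Pcdha probes was detected per array in PFC, 7.5 in NAc and 6 in HIP. For Pcdhb the medians were 6 of 25 in PFC, 9 in NAc and 8 in HIP, and for Pcdhg 7 of 22, 9 and 5. The delta-1 group (Pcdh1, Pcdh7, Pcdh9 and Pcdh11x) and the delta-2 group (Pcdh8, Pcdh10, Pcdh17, Pcdh18 and Pcdh19) differed by at most 1 probe between regions. The fewest protocadherins were seen on 3 arrays, with 24 probes on the replicate 3 array of Cpd-60 in PFC and 28 and 22 probes on the replicate 2 and 3 arrays of SAHA in HIP. Detection was low over all probes on these arrays too, at 32.8%, 32.1% and 32.3%, where the 36 arrays ran from 31.9% to 43.3%. These counts carry no test.

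**Figure D1:**
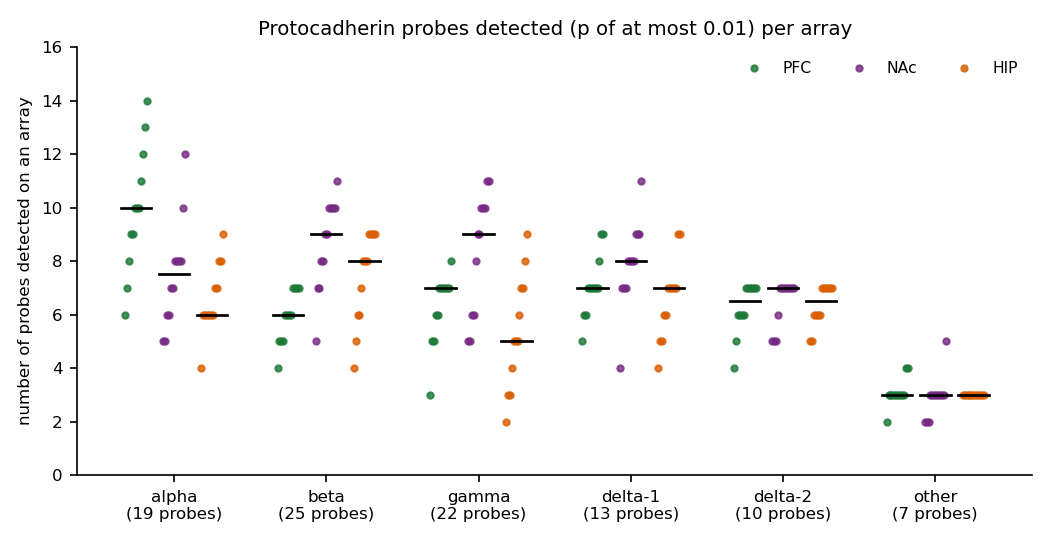
Number of protocadherin probes detected per array (y axis, detection p of 0.01 or below) for each subfamily (x axis), with 1 point per array coloured by region and a black line at the median of the 12 arrays of a region. Pcdha probes were seen most in PFC, at a median of 10, while delta-1 and delta-2 counts lay close together in all regions.

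A probe entered the tests across regions if some group had it at a detection p of 0.2 or below on each of its 3 arrays. This left 68 of the 96 protocadherin probes (70.8%), 45 clustered and 23 non-clustered, among 26594 probes in all (58.7%). The 28 others included every probe of 19 genes, which were Pcdha1, Pcdha3, 10 Pcdhb genes (Pcdhb2, Pcdhb5, Pcdhb9, Pcdhb11, Pcdhb13, Pcdhb15, Pcdhb16, Pcdhb17, Pcdhb18 and Pcdhb21), Pcdhga1, Pcdhga3, Pcdhga5, Pcdhga6, Pcdhgb5, Pcdh12 and Pcdh18. Nothing is said of those genes beyond their dim signal. Raw intensities keep the background glow of the array, so log2 differences of dim probes are smaller than the differences in RNA.

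Across regions, protocadherins were called about as often as other probes. Between HIP and PFC 31 of the 68 probes (45.6%) passed an adjusted p of 0.05, 10 higher and 21 lower in HIP, against 46.8% of all tested probes. Between NAc and PFC 25 passed, 9 higher and 16 lower in NAc, against 41.9% (20.6% higher and 21.3% lower). Between HIP and NAc 26 passed, 7 higher and 19 lower in HIP, against 33.2% (15.3% higher and 17.9% lower). With BeadChip as a random block the counts were 23, 19 and 14, against 35.7%, 31.4% and 23% of all probes. Levels of all 12 arrays of a region lay apart from all 12 of the other for 7 protocadherin probes between HIP and PFC (11.4% of all probes), 2 between NAc and PFC (7.28%) and 3 between HIP and NAc (5.94%). By class, between HIP and PFC 16 of 45 clustered probes were lower and 4 higher in HIP, while 5 of 23 non-clustered probes were lower and 6 higher, where 26.3% of all probes were lower and 20.5% higher. The difference between the 2 classes was not tested.

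**Figure D2:**
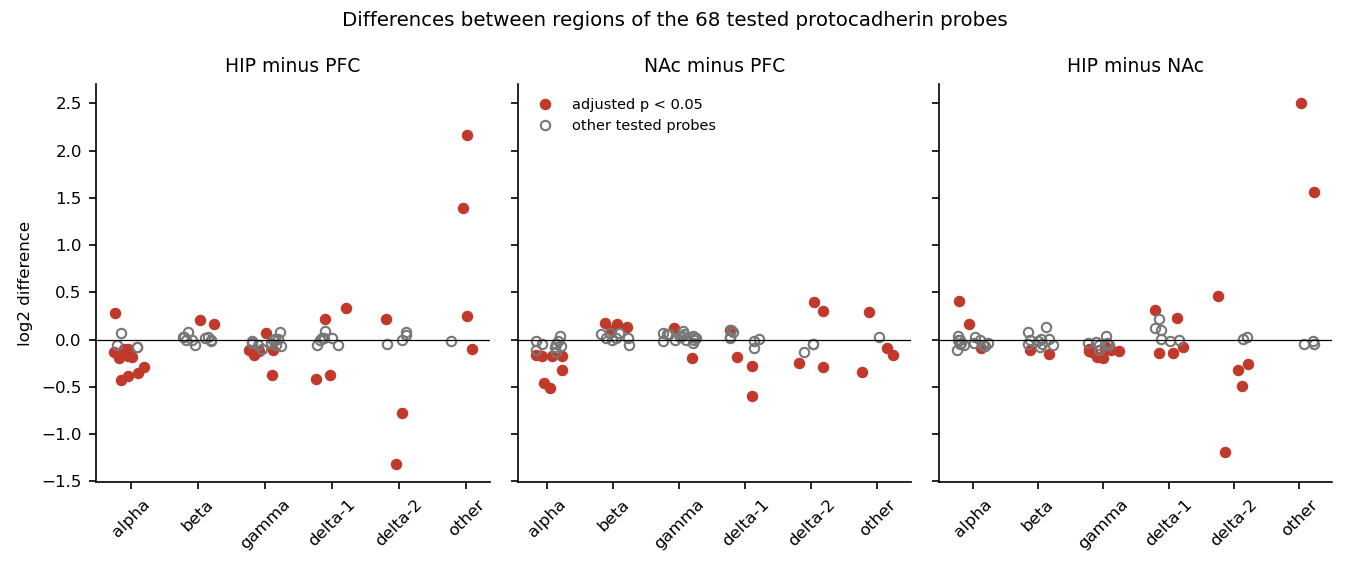
Log2 difference between regions (y axis) of each tested protocadherin probe by subfamily (x axis), 1 panel per comparison, averaged over the 4 treatments, with filled red points at an adjusted p under 0.05. Pcdha points lie mostly below 0 against the PFC, and in the comparisons with HIP probes of Pcdh20 and Pcdh10 lie farthest from 0.

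Pcdh20, a non-clustered protocadherin outside the delta-1 and delta-2 lists used here, had the widest spread of region means of all members tested. On probe ILMN_1237302 its level (lowest, median and highest of 12 arrays) was 7.68, 7.94 and 8.12 in PFC, 7.15, 7.55 and 8.04 in NAc and 9.88, 10.10 and 10.38 in HIP. Every HIP array lay above every array of the other regions. The log2 difference was 2.17 (SE 0.08, adjusted p = 1.8e-18) from the PFC and 2.51 (SE 0.08, adjusted p = 2.5e-20), or 5.69-fold, from the NAc, higher in HIP in 12 of 12 pools. The NAc was below the PFC by a smaller amount, with a log2 difference of -0.34 (SE 0.08, adjusted p = 9.7e-04). The other probe, ILMN_1224947, gave the same order at 6.70, 6.90 and 7.05 in PFC, 6.62, 6.72 and 6.82 in NAc and 8.06, 8.31 and 8.47 in HIP. Its fold differences were 2.63 from the PFC and 2.94 from the NAc, and its log2 difference from the PFC rose from 1.40 to 2.49 when background was modelled and removed. In the vehicle arrays alone the HIP to PFC difference was 2.23 and 1.52 on the log2 scale for ILMN_1237302 and ILMN_1224947.

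The delta-2 protocadherins, several of which bind the WAVE regulatory complex through their cytoplasmic tails, did not share 1 pattern. Pcdh10, known for its role in axon growth of striatal neurons, had its lowest level in HIP. On probe ILMN_2727239 the level was 8.50, 8.75 and 9.05 in PFC, 8.37, 8.52 and 8.98 in NAc and 7.27, 7.43 and 7.60 in HIP, where no array reached the lowest value elsewhere. The log2 difference was -1.32 (SE 0.07, adjusted p = 1.7e-14) from the PFC and -1.19 (SE 0.07, adjusted p = 7.4e-14), or 2.28-fold lower, from the NAc, whereas NAc and PFC differed by -0.13 (adjusted p = 0.156). The other Pcdh10 probes disagreed with it in part. ILMN_1228833 fell by 0.78 (SE 0.07, adjusted p = 8.1e-10) from PFC to HIP and by 0.28 (adjusted p = 0.0020) from PFC to NAc, while ILMN_2663752 had medians of 6.81, 7.16 and 6.89 in PFC, NAc and HIP and was 0.31 higher in NAc than in PFC (SE 0.08, adjusted p = 0.0035).

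Pcdh19, mutated in a female-limited epilepsy and a partner of N-cadherin, ran from the NAc at 7.23, 7.41 and 7.79 through the PFC at 7.55, 7.72 and 7.89 to the HIP at 7.68, 7.89 and 8.43 (ILMN_2696829). The HIP was above the NAc in 12 of 12 pools, by 0.47 on the log2 scale (SE 0.07, adjusted p = 1.9e-06). Its difference of 0.22 from the PFC had an adjusted p of 0.0083, which became 0.064 with BeadChip as a random block. Pcdh17, which helps to lay out corticostriatal synapses, was instead highest in NAc, at 9.24, 10.08 and 10.24 against 9.03, 9.56 and 10.02 in PFC and 9.54, 9.65 and 9.82 in HIP (ILMN_2804444). The NAc exceeded the PFC by 0.40 (SE 0.09, adjusted p = 7.5e-04) in 10 of 12 pools, and the HIP differed from the NAc by -0.32 (SE 0.09, adjusted p = 0.0071), although single arrays of the regions overlapped.

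**Figure D3:**
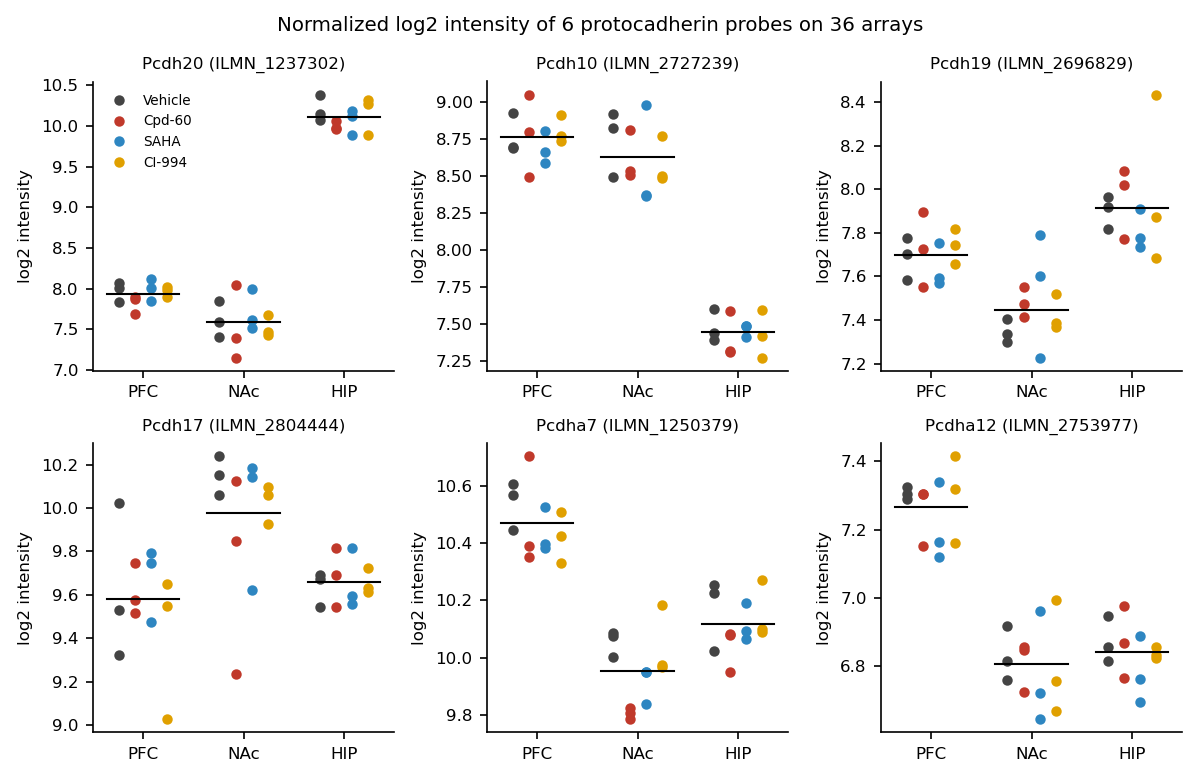
Level (y axis, log2 normalized intensity) of 6 protocadherin probes in PFC, NAc and HIP (x axis), with 1 point per array coloured by treatment and a black line at the mean of 12 arrays. Pcdh20 stands apart in HIP at 9.88 to 10.38, Pcdh10 is lowest there, and Pcdha7 and Pcdha12 are highest in PFC. In the NAc the Cpd-60 points of Pcdha7 on this probe, ILMN_1250379, lie below those of the other treatments. Cpd-60 and vehicle did not overlap there for 9.38% of all probes.

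Of the delta-1 group, Pcdh7, an adhesion protein that interacts with the phosphatase PP1, was graded from PFC to HIP on probe ILMN_1260538. This probe had levels of 6.93, 7.07 and 7.29 in PFC, 6.63, 6.82 and 6.99 in NAc and 6.54, 6.70 and 6.75 in HIP, where it was detected on 4 of 12 arrays. The HIP was lower than the PFC in all pools, by 0.42 (SE 0.04, adjusted p = 5.1e-10), and the NAc was lower than the PFC in all pools, with a log2 difference of -0.27 (adjusted p = 8.2e-07). The other tested Pcdh7 probe, ILMN_2881857, did not show this order. It had medians of 6.63 in PFC, 6.67 in NAc and 6.64 in HIP and was detected on 6 of 36 arrays. Pcdh11x, an X-linked member, was near background, with medians of 6.69 in PFC, 6.79 in NAc and 6.62 in HIP and a HIP to NAc difference of -0.14 (adjusted p = 0.0017).

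Pcdh9, the delta-1 gene with 5 tested probes, gave directions that depended on the probe. ILMN_1231837 had medians of 10.28 in PFC, 9.52 in NAc and 9.76 in HIP, with the NAc below the PFC (log2 difference -0.60, SE 0.11, adjusted p = 7.6e-05). ILMN_1248508 was instead highest in HIP, at 7.41, 7.58 and 7.81 against 7.04, 7.29 and 7.53 in NAc, a difference of 0.31 (SE 0.05, adjusted p = 2.7e-05) seen in 12 of 12 pools. ILMN_1243310 was 0.34 higher in HIP than in PFC (SE 0.08, adjusted p = 4.6e-04). ILMN_3028837 was lower in NAc than in PFC by a log2 difference of -0.18 (adjusted p = 0.018, or 0.102 with BeadChip as a random block), and ILMN_1260006 passed in no region comparison. The Pcdh9 probes thus disagreed on direction, and their positions in the gene were not used here.

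Pcdh21 (Cdhr1), best known from photoreceptors and olfactory bulb mitral cells, was lowest in PFC, with a median of 6.86 against 7.13 in NAc and 7.17 in HIP (ILMN_2980815). Its difference from the PFC was 0.30 in NAc (adjusted p = 1.3e-04, 12 of 12 pools) and 0.25 in HIP (adjusted p = 7.4e-04).

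Most of the Pcdha probes called against the PFC were lower in HIP or NAc. Of the 16 tested probes 11 were lower and 1 higher in HIP than in PFC, the fall ranging from -0.43 to -0.09 on the log2 scale, and 9 of the 12 calls passed with BeadChip as a random block. Of the 11 lower probes 4 were detected on no HIP array. Between NAc and PFC 7 were lower and none higher, from -0.52 to -0.16, 9 did not pass, and 6 calls passed with the block. Over all tested probes 26.3% were lower in HIP and 21.3% lower in NAc than in PFC. The lower sums of neuronal markers in both regions moved with these probes, and their part was not tested. In contrast, between HIP and NAc 2 were higher and 1 lower. Over all tested probes the median difference was -0.02, -0.01 and 0.00 in these comparisons.

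Pcdha7 gave the largest fitted difference of the cluster with background left in the signal. On ILMN_1250379 its level was 10.33, 10.43 and 10.70 there, 9.78, 9.96 and 10.18 in NAc and 9.95, 10.09 and 10.27 in HIP, so that all 12 PFC arrays lay above all others. The differences were -0.52 in NAc (SE 0.04, adjusted p = 1.8e-11) and -0.35 in HIP (SE 0.04, adjusted p = 4.5e-08), and the HIP was 0.16 above the NAc (adjusted p = 0.0020). A further Pcdha7 probe, ILMN_1215440, moved the same way, with differences of -0.32 in NAc (adjusted p = 0.0017) and -0.38 in HIP (adjusted p = 2.6e-04). The third tested probe, ILMN_2689952, passed in no comparison, but it was near background, with a PFC median of 6.64 and detection on 1 of 36 arrays. The Pcdha7 probe ILMN_2677651, also detected on 1 array, was not tested. Pcdha12 (ILMN_2753977) was likewise set apart in PFC, at 7.12, 7.30 and 7.42 against 6.64, 6.79 and 6.99 in NAc and 6.69, 6.84 and 6.98 in HIP. It was lower than in PFC in every pool, with differences of -0.46 in NAc (SE 0.04, adjusted p = 6.5e-10) and -0.43 in HIP (SE 0.04, adjusted p = 4.0e-09). With background modelled and removed its differences were larger than those of Pcdha7, at -1.13 in NAc and -1.02 in HIP.

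Smaller differences of the same direction were found for Pcdha11, at -0.18 in both regions (adjusted p = 2.0e-04 in HIP and 2.8e-04 in NAc), which was detected on 11 PFC, 3 NAc and 2 HIP arrays of 12 and so lay near background outside the PFC, for Pcdha10 on ILMN_2886128, at -0.17 in both (adjusted p = 0.0029 and 0.0031), and for Pcdhac2, the C-type isoform found in serotonergic and other neurons, at -0.29 in HIP (adjusted p = 0.0015). Pcdha5 was detected on 7 of 12 PFC arrays and on no HIP array, so that only a bound of at least 1.04-fold lower can be given for the HIP (adjusted p = 2.5e-04). The exception was Pcdha6. Its brightest probe, ILMN_3076948, was highest in HIP, at 8.32, 8.53 and 8.91 against 8.06, 8.31 and 8.58 in PFC and 7.72, 8.11 and 8.63 in NAc, and the HIP was 0.41 above the NAc (adjusted p = 0.0015) and 0.28 above the PFC (adjusted p = 0.020, or 0.069 with BeadChip as a random block). The Pcdha6 probe ILMN_2591294 passed as lower in HIP than in PFC (adjusted p = 9.2e-04), but it was detected on 0 of 12 HIP and 4 of 12 PFC arrays, so that no fold is given, and ILMN_3155884 passed in no comparison.

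The Pcdhb cluster showed few differences between regions, and those against the PFC ran the other way. Of 12 tested probes 4 were higher and none lower in NAc than in PFC, by 0.10 to 0.18, where 20.6% of all probes were higher, and 2 of the 4 passed with BeadChip as a random block. In HIP 2 were higher than in PFC, by 0.17 and 0.21, against 20.5% of all probes, and both passed with the block. Between HIP and NAc 2 were lower in HIP, against 17.9% of all probes, and 1 passed with the block. Pcdhb12 (ILMN_1216692) was 0.21 higher in HIP (adjusted p = 3.7e-04) and 0.14 higher in NAc (adjusted p = 0.018, or 0.088 with BeadChip as a random block), on medians of 6.75 in PFC, 6.85 in NAc and 6.94 in HIP. Pcdhb20 (ILMN_2979449) had its highest levels in NAc, at 6.99, 7.11 and 7.20 against 6.66, 6.93 and 7.03 in PFC, a difference of 0.18 (adjusted p = 3.4e-04).

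In the Pcdhg cluster, which is needed for survival of spinal and cortical interneurons, the calls were mostly of lower levels in HIP, and few passed with BeadChip as a random block. Of 17 tested probes 9 were lower and none higher in HIP than in NAc, by -0.19 to -0.08, against 17.9% of all probes lower, and 1 of these passed with the block. Against the PFC 5 were lower and 1 higher in HIP, where 26.3% of all probes were lower and 20.5% higher, and 3 calls passed with the block. Between NAc and PFC 1 was higher and 1 lower in NAc, against 20.6% and 21.3% of all probes, and neither passed with the block. The largest difference belonged to Pcdhgc5, a C-type isoform, on ILMN_2672878, at 6.67, 6.99 and 7.36 in PFC, 6.58, 6.86 and 7.20 in NAc and 6.55, 6.66 and 6.80 in HIP. The HIP was lower than the PFC in every pool, by a log2 difference of -0.37 (SE 0.07, adjusted p = 6.7e-05), and the probe was detected on 4 of 12 HIP arrays against 11 PFC arrays. Pcdhgb4 (ILMN_1241991) was lower in HIP than in NAc, with medians of 7.61 and 7.81 and a difference of -0.19 (adjusted p = 0.0061).

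Genes that act on the clusters or bind protocadherins were measured beside them, each by its tested probe of highest mean signal. Of 16 chromatin and DNA factors 14 were tested, and between HIP and PFC 5 were higher and 3 lower in HIP, where 20.5% of all probes were higher and 26.3% lower. The higher ones were Ctcf, the insulator protein that binds cluster promoters and enhancers, at 0.27, the cohesin subunits Smc3 at 0.31 and Stag1 at 0.37, the cohesin loader Nipbl at 0.90 and the cohesin release factor Wapal at 0.41. The lower ones were Smchd1, a silencer of the clusters, at -0.13 and the histone methyltransferases Setdb1 at -0.15 and Ehmt2 at -0.41. Against the PFC 4 factors were higher and 1 lower in NAc, where 20.6% of all probes were higher and 21.3% lower. Against the NAc none was higher and 3 were lower in HIP, where 15.3% of all probes were higher and 17.9% lower. Of 16 genes for partners and processing of the proteins 14 were tested, and 7 were higher and 3 lower in HIP than in PFC. The higher ones included Ptk2b, a kinase inhibited by Pcdha and Pcdhg tails, at 1.13, and the WAVE complex members Nckap1 at 0.80, Cyfip2 at 0.83 and Abi1 at 1.65. The lower ones included Ptk2, the focal adhesion kinase, at -0.45 and Pdcd10 at -0.16. Of these 14 genes 5 were higher and 1 lower in NAc than in PFC, and 7 were higher and 1 lower in HIP than in NAc.

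None of the 3 drugs changed a protocadherin past an adjusted p of 0.05 in any region, and by limma no probe of the whole array passed in any of the 9 comparisons (0% of all probes). Over the 9 comparisons the log2 differences of protocadherin probes from vehicle ran from -0.42 to 0.26. At an unadjusted p under 0.05, Cpd-60 gave 4 of 60 protocadherin probes in PFC (5.19% of all probes), 5 of 64 in NAc (4.77%) and 3 of 56 in HIP (5.26%). SAHA gave 1 in PFC (2.25%), 0 in NAc (2.05%) and 2 in HIP (9.37%). CI-994 gave 3 in PFC (3.98%), 3 in NAc (1.99%) and 1 in HIP (3.24%). Of the Cpd-60 probes, clustered genes made up 2 of 4 in PFC, 1 of 5 in NAc and 3 of 3 in HIP.

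Pcdh9 was the single gene past both an unadjusted p of 0.05 and a 1.2-fold difference, under Cpd-60 in NAc, with 2 of its 5 probes. On ILMN_1260006 the NAc levels of the 3 pools were 7.44, 7.42 and 7.26 under vehicle, 7.07, 6.88 and 7.10 under Cpd-60, 7.05, 7.08 and 7.22 under CI-994 and 7.31, 7.38 and 7.30 under SAHA. All Cpd-60 and CI-994 pools lay below all vehicle pools, groups that did not overlap for 9.38% and 7.61% of all probes, and the SAHA pools lay among the vehicle pools. The difference from vehicle was -0.36 under Cpd-60 (SE 0.08, limma unadjusted p = 0.000919, adjusted p = 0.942) and -0.26 under CI-994 (unadjusted p = 0.00764). Within the BeadChips the Cpd-60 difference was -0.46 and -0.16, and without any 1 pool it was -0.42 to -0.29. On ILMN_3028837 the levels were 7.61, 7.75 and 7.57 under vehicle, 7.03, 7.33 and 7.45 under Cpd-60, 7.37, 7.34 and 7.51 under CI-994 and 7.48, 7.48 and 7.57 under SAHA. The Cpd-60 and CI-994 pools again lay below the vehicle pools, by -0.37 (SE 0.10, unadjusted p = 0.00419) and -0.24 (unadjusted p = 0.0413), and the Cpd-60 difference was -0.50 and -0.11 within the BeadChips and -0.46 to -0.25 without any 1 pool. On ILMN_3028837 the lowest Cpd-60 value came from replicate 1 in NAc, and on ILMN_1260006 it came from replicate 2. Of all 36 arrays, that of replicate 1 had the fewest probes detected (31.9%) and the lowest 95th percentile of raw intensity (349.9). The part of this array in the Pcdh9 values was not tested.

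The other 3 Pcdh9 probes did not follow in NAc. The brightest, ILMN_1231837, was at 9.52, 9.41 and 9.84 under vehicle and 9.16, 9.52 and 9.96 under Cpd-60, a difference of -0.05 with an SE of 0.23. ILMN_1243310 differed by -0.04 (SE 0.18) and ILMN_1248508 by 0.07 (SE 0.14). Outside the NAc ILMN_1260006 differed from vehicle under Cpd-60 by -0.01 in PFC and by 0.19 in HIP. Of markers of other cells in NAc under Cpd-60, 2 of 5 astrocyte markers were higher, 1 of 3 blood markers lower at an unadjusted p of 0.05, and 1 of 5 microglia markers was lower and 1 of 4 choroid plexus markers higher. Under CI-994 2 of 3 blood markers and 1 of 6 oligodendrocyte markers were lower. The part of these cells was not tested.

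**Figure D4:**
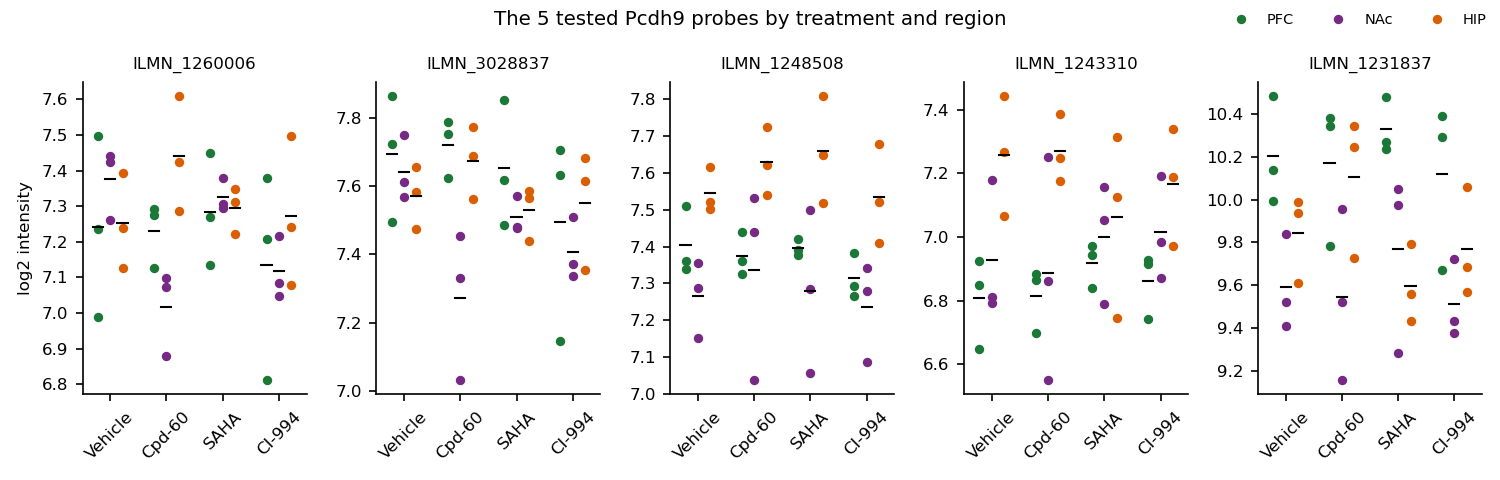
Level (y axis, log2 normalized intensity) of the 5 tested Pcdh9 probes under vehicle, Cpd-60, SAHA and CI-994 (x axis), with 1 point per array coloured by region and a black line at the mean of a group of 3. In the NAc the Cpd-60 and CI-994 points of ILMN_1260006 and ILMN_3028837 lie below the vehicle points, while the other 3 probes overlap.

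Beyond Pcdh9, the members with the smallest p in each comparison had fitted differences from vehicle under 1.2-fold, a scale on which dim probes are compressed, and several were not detected in 1 of the groups. For Pcdhga8 (ILMN_2705452) the direction under Cpd-60 differed by region. In the PFC it was at 6.86, 6.78 and 6.84 under vehicle and at 6.70, 6.66 and 6.67 under Cpd-60, where no array detected it, a fall of at least 1.05-fold (unadjusted p = 0.0288, adjusted p = 0.923). In the HIP it was at 6.67, 6.67 and 6.58 under vehicle, where no array detected it, and at 6.83, 6.74 and 6.77 under Cpd-60, at least 1.06-fold higher (unadjusted p = 0.0232, adjusted p = 0.910). The groups did not overlap in either region, as was so for 9.68% of all probes in PFC and 12.2% in HIP. Pcdha7 (ILMN_1250379) in NAc was at 10.08, 10.00 and 10.07 under vehicle and at 9.82, 9.78 and 9.81 under Cpd-60, a difference of -0.25 (unadjusted p = 0.00396, adjusted p = 0.942). These groups did not overlap, as for 9.38% of all probes. On ILMN_1215440 they overlapped, at 9.59, 9.41 and 9.21 under vehicle and 8.90, 9.44 and 9.09 under Cpd-60. The dim ILMN_2689952 had means of 6.59 under vehicle and 6.65 under Cpd-60. Under SAHA ILMN_1250379 was the member with the smallest p in NAc, with a difference of -0.14 (unadjusted p = 0.0625).

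SAHA in PFC gave Pcdha6 (ILMN_3155884), at 6.62, 6.61 and 6.51 under vehicle and 6.86, 6.70 and 6.71 under SAHA (unadjusted p = 0.0475), detected on 1 of these 6 arrays and without overlap, as 8.68% of all probes were. In the HIP the member with the smallest p under SAHA was Pcdh1 (ILMN_1260020), a delta-1 protocadherin also found in airway epithelium, at 6.88, 6.96 and 6.85 under vehicle and 6.74, 6.64 and 6.64 under SAHA, where it was not detected, at least 1.06-fold lower (unadjusted p = 0.0192, adjusted p = 0.514). The groups did not overlap, as was so for 19.3% of all probes. The replicate 2 and 3 arrays of SAHA in HIP were those with few detected protocadherins, and they detected 32.1% and 32.3% of all probes. Vehicle arrays in HIP detected 38.0% to 39.7%. Over the 3 SAHA arrays in HIP 3 of 6 oligodendrocyte markers were lower at an unadjusted p of 0.05, which 9.37% of all probes passed. At the same p 1 of 5 astrocyte markers was higher and 1 lower, and 1 of 5 microglia, 1 of 5 endothelial and 1 of 3 blood markers was lower. The part of these arrays and cell types in the Pcdh1 value was not tested.

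Under CI-994 the smallest p-values of the 3 regions fell on 3 different genes. In the PFC Pcdh7 (ILMN_1260538) was at 7.08, 7.12 and 7.29 under vehicle and 6.93, 6.96 and 7.03 under CI-994, a difference of -0.19 (SE 0.07, unadjusted p = 0.0212). The other tested Pcdh7 probe, ILMN_2881857, had PFC means of 6.57 under vehicle and 6.58 under CI-994. In the NAc Pcdhb3 (ILMN_1253649) was at 7.07, 6.98 and 6.95 under vehicle and 7.14, 7.22 and 7.32 under CI-994, a difference of 0.23 (SE 0.07, unadjusted p = 0.00754). In the HIP Pcdh21 was at 7.13, 7.00 and 7.10 under vehicle and 7.28, 7.27 and 7.38 under CI-994, a difference of 0.23 (SE 0.09, unadjusted p = 0.0197). In the PFC Pcdh21 differed by 0.21 (unadjusted p = 0.0321), where 1 CI-994 pool, at 6.96, lay below the highest vehicle pool at 6.98. In the NAc it was at 7.18, 7.34 and 7.05 under vehicle and 7.76, 7.43 and 7.13 under CI-994. That difference of 0.25 did not pass an unadjusted p of 0.05. Pools of CI-994 and vehicle did not overlap for Pcdh7 in PFC (10.7% of all probes), Pcdhb3 in NAc (7.61%) and Pcdh21 in HIP (9.58%). Of 3 blood markers 2 were lower under CI-994 in each region at an unadjusted p of 0.05, and their part was not tested.

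**Figure D5:**
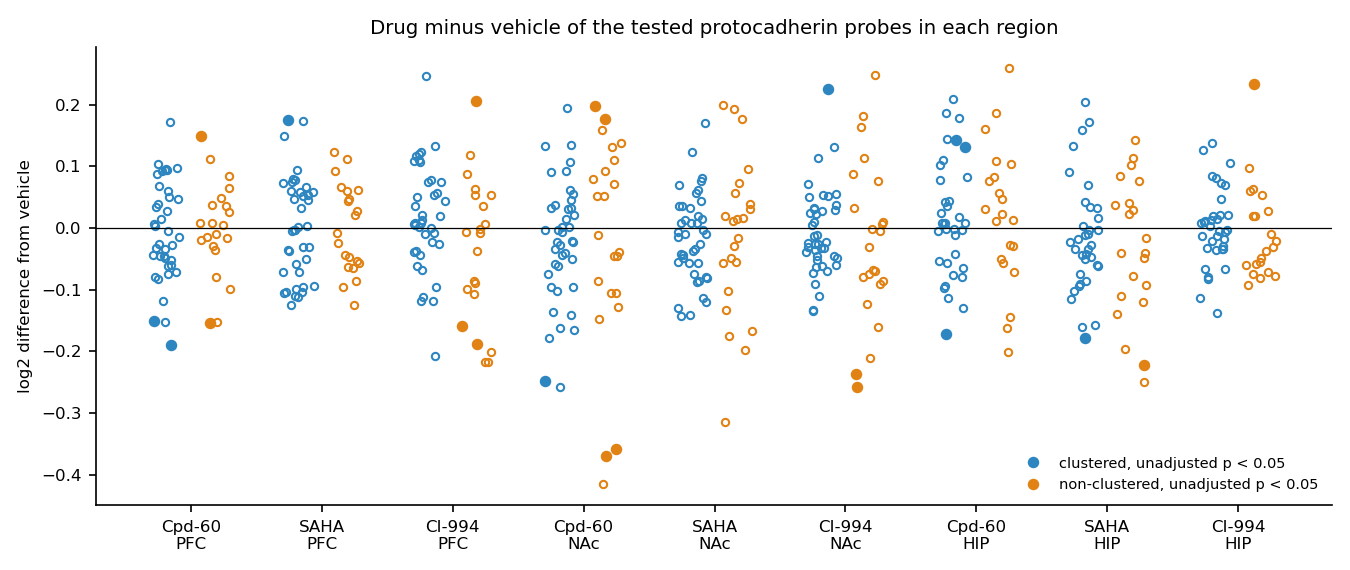
Log2 difference from vehicle (y axis) of each tested protocadherin probe in the 9 comparisons of a drug in a region (x axis), with clustered genes in blue, non-clustered genes in orange and filled points at an unadjusted p under 0.05. Points lie between -0.42 and 0.26 in all comparisons, and no point passed the adjusted threshold.

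For Pcdh20 and Pcdh10, the genes with the largest regional differences, no probe passed an unadjusted p of 0.05 under a drug. Pcdh20 on ILMN_1237302 differed from vehicle by -0.20 to 0.10 over the 9 comparisons, and Pcdh10 on ILMN_2727239 by -0.17 to 0.03. The Pcdh10 probe ILMN_1228833 had wider values in NAc, at -0.32 under SAHA (SE 0.18, unadjusted p = 0.108) and -0.21 under CI-994 (SE 0.18, unadjusted p = 0.267). The HIP to PFC difference was 2.07 to 2.23 for Pcdh20 on ILMN_1237302 and -1.38 to -1.22 for Pcdh10 on ILMN_2727239 over the 4 treatments. The largest difference from vehicle of any protocadherin was that of Pcdh17 under Cpd-60 in NAc, at -0.42 with an SE of 0.21 (unadjusted p = 0.0690).

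Whether a drug acted differently between regions was tested with an F test over the 3 regions. No protocadherin and no probe of the array passed an adjusted p of 0.05 for any drug. At an unadjusted p under 0.05 there were 6 of 68 protocadherin probes for Cpd-60 (2.63% of all probes), 2 for SAHA (4.38%) and 3 for CI-994 (1.99%). For Cpd-60 the smallest p was that of Pcdhga8, with differences of -0.15 in PFC, -0.03 in NAc and 0.14 in HIP (limma F test, unadjusted p = 0.0012, adjusted p = 0.99998). Pcdh1 followed on ILMN_2597660 with -0.15, 0.18 and -0.06 (unadjusted p = 0.0058, the same adjusted p), then Pcdhgc4 with 0.05, 0.09 and -0.17 (unadjusted p = 0.0148) and Pcdh24 (Cdhr2) with 0.01, 0.20 and -0.09 (unadjusted p = 0.0168). The Pcdh9 probes ILMN_1260006 and ILMN_3028837 had unadjusted p-values of 0.0173 and 0.0249. Pcdhgc4 was detected on 5 of 36 arrays, Pcdh24 on 2 and this Pcdh1 probe on 10, so that their differences lie near background. For SAHA the probes were Pcdh1 on ILMN_1260020, with 0.07, 0.06 and -0.22 (unadjusted p = 0.0120, adjusted p = 0.99955), and Pcdhgc4 (unadjusted p = 0.0477). For CI-994 they were Pcdh1 on ILMN_2597660 with -0.16, 0.11 and -0.08 (unadjusted p = 0.0254, adjusted p = 0.99999), Pcdhga8 (unadjusted p = 0.0386) and Pcdhb1 (unadjusted p = 0.0393). All 3 tests used the same vehicle arrays. Of vehicle pools 2 were on the first BeadChip of a region and 1 on the second, the reverse of SAHA and CI-994. With BeadChip as a block the unadjusted p became 0.0713 for Pcdh1 and 0.0863 for Pcdhb1 under CI-994 and 0.0571 for Pcdhgc4 under SAHA, while the other 8 stayed under 0.05.

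The chromatin factors and the partners were also compared with vehicle. At an unadjusted p of 0.05 at most 1 of 12 to 14 tested chromatin factors passed in any of the 9 comparisons. Of the 14 tested partners at most 1 passed as well. Over all probes the share was 1.99% to 9.37%, and no probe of the array passed after adjustment.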

How the data were processed

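The authors deposited the raw intensity of each probe on 36 Illumina MouseWG-6 arrays, as linear values that were neither background-subtracted nor normalized, together with a detection p-value per probe. Analysis used limma 3.58.1 under R 4.3.3. Quantile normalization ran over all 36 arrays at once, values under 1 were set to 1, and log2 was taken. Probes were kept where some group had them at a detection p of 0.2 or below on each of its 3 arrays. Each drug was compared with vehicle per region on 12 arrays without covariates. Regions were compared over 12 group means, averaged over treatments, with a random block for the pool of mice (correlation -0.013). This pairing comes from the labels. Residuals of a pool correlated between regions at -0.46 to 0.56, with a median of -0.02. Adjustment was by Benjamini-Hochberg over all tested probes at 0.05. Of the 68 genes 66 matched a current RefSeq symbol and 2 a synonym.

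Named probes were, for regions, the 14 non-clustered and 12 clustered probes with the widest spread of region means among those called and, for drugs, those past an unadjusted p of 0.05 and 1.2-fold, or with the smallest p in a comparison, and for differing drug effects those past an unadjusted p of 0.05. Further members are named where a count is given. Members and lists were chosen with earlier results of these data known. Alternatives were another detection limit, no filter, background modelling (neqc), normalization by region or without CI-994, BeadChip and replicate blocks, the methods' ANOVA with Tukey's test, vehicle arrays alone and leaving out each pool. Pools are of separate animals. The Cpd-60 pool of mice 3 and 4 is called by the numbers of the first pool in the description, and its title was used. The log2 differences between its arrays and those of replicate 1 on the same BeadChip had SDs within the 0.120 to 0.248 of such pairs. The number of arrays limits the precision. A fold said to be at least a value sets undetected probes at the higher of their own signal and the lowest detected signal. RefSeq genes Pcdha4, Pcdha8, Pcdhga11 and Pcdhgb1 were not analysed here. The values of 1 gene of the partner list are not reported here.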

Additional observations from a re-analysis of the deposited data

How the results depend on the processing

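Counts at an adjusted p of 0.05 stayed at 0 for every drug and every difference in drug effect under all alternatives run, and no difference of a named probe reversed. Of 56 region calls of named probes, 56 passed with neqc and 47 with BeadChip as a random block, which left 14 protocadherin probes called between HIP and NAc. On the 9 vehicle arrays alone the region counts were 14 for HIP against PFC, 7 for NAc against PFC and 8 for HIP against NAc. Without the pool block they were 31, 26 and 26. The mean number of clustered probes detected per array was 21.9 at a detection p of 0.01, 27.8 at 0.05 and 38.5 at 0.2, and the mean number of non-clustered probes detected per array was 16.5 at 0.01 and 21.3 at 0.2. The following counts are at an unadjusted p of 0.05. Filtering at a detection p of 0.01 gave, for Cpd-60, 1 in PFC, 3 in NAc, 0 in HIP and 3 for differing effects, for SAHA 0 in PFC, 1 in HIP and 1 for differing effects, and for CI-994 0 for differing effects. Without a filter SAHA gave 3 in PFC and 2 in NAc, and CI-994 5 in PFC, 5 in NAc and 3 in HIP. With neqc there were 8 for Cpd-60 in NAc, 2 and 5 for SAHA in PFC and HIP, and 5 and 2 for CI-994 in PFC and HIP. Normalizing each region alone gave 0 for SAHA in PFC, and leaving CI-994 out of the normalization gave SAHA 0 in PFC and 1 in NAc. A BeadChip block gave 3 for SAHA in PFC. The methods' ANOVA with Tukey's test gave 1 for Cpd-60 and 0 for SAHA and CI-994 in PFC, 3 for Cpd-60 in NAc, and 1 for SAHA and 0 for CI-994 in HIP. The cause of these moves was not tested, apart from the fewer probes tested under the stricter filter. Replicate numbers are shared between treatments by name only (residuals of same-numbered arrays correlated at -0.42 to 0.71, median 0.17). A replicate block gave 2 for SAHA in PFC and 1 in NAc, and changed no adjusted call.

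Leaving out 1 pool at a time gave 28 to 34 region calls for HIP against PFC, 22 to 28 for NAc against PFC and 19 to 26 for HIP against NAc. Clustered probes detected averaged 21.5 to 22.2 and non-clustered ones 16.3 to 16.6. For Cpd-60 there were 0 to 4 in PFC (0 without vehicle 1, 1 without vehicle 2 and 2 without Cpd-60 1), 4 to 9 in NAc (8 without vehicle 3 and 9 without Cpd-60 3), 0 to 8 in HIP (1 without vehicle 1, 0 without vehicle 3 or Cpd-60 1 and 8 without Cpd-60 3) and 2 to 7 for differing effects (2 without vehicle 1 or Cpd-60 1). SAHA gave 0 to 1 in PFC (0 without vehicle 2, vehicle 3 or SAHA 3), 0 to 2 in NAc (2 without vehicle 3 and 1 without SAHA 1 or 2), 1 to 7 in HIP (1 without vehicle 1, vehicle 2 or SAHA 2 and 7 without SAHA 1) and 0 to 4 for differing effects (4 without vehicle 3, 1 without vehicle 2 and 0 without SAHA 2). CI-994 gave 2 to 3 in PFC, 2 to 7 in NAc (6 without vehicle 3 and 7 without CI-994 3), 0 to 2 in HIP (0 without vehicle 2 or CI-994 3 and 2 without CI-994 1) and 1 to 5 for differing effects (1 without vehicle 1 or CI-994 1 and 5 without vehicle 3). The Cpd-60 difference of Pcdh9 on ILMN_1260006 in NAc had an unadjusted limma p of 0.000577 to 0.00491 over these fits. Of 54 such fits of the 9 named drug differences, 19 took the unadjusted p to 0.05 or above. It reached 0.0838 for Pcdhga8 in PFC and 0.0897 in HIP (without vehicle 1 and vehicle 3), 0.110 for Pcdh7 (without vehicle 3), 0.181 for Pcdha6 (without SAHA 1), and 0.0685 for Pcdh1 and 0.0733 for Pcdh21 (without vehicle 2), while Pcdh9 and Pcdhb3 stayed under 0.05. Of the 9, Pcdha6, Pcdh7, Pcdh1 and Pcdh21 also lost their call with the methods' Tukey test.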
